A study of Mus musculus with 36 samples.

Results

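The genes that make cholesterol and fatty acids were examined across 36 RNA sequencing libraries of mouse bladder cancer models. Members were the table's rows whose gene symbol was on a list of 36 genes, and 35 of the 36 were found, out of 21705 genes in the table. The row of Hmgcs1 was not found and is not analysed here. The 35 comprised 17 genes of sterol synthesis, 5 genes that control the pathway, 1 sterol carrier (Stard4), 6 genes of acetyl-CoA supply and fatty acid synthesis, and 6 desaturases and elongases.

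Cholesterol is built from acetyl-CoA through mevalonate, isoprenoid pyrophosphates, squalene and lanosterol, and fatty acids are built from the same acetyl-CoA through malonyl-CoA. SREBP transcription factors, encoded by Srebf1 and Srebf2, drive most of these genes. When membrane sterol is low, the escort protein Scap carries SREBP from the endoplasmic reticulum to the Golgi, where it is cut and freed. When sterol is plentiful, Insig1 and Insig2 hold Scap back. In general SREBP-1 acts more on fatty acid genes and SREBP-2 more on sterol genes. Urothelium, the lining of the bladder from which these models derive, forms a barrier whose surface membrane is rich in cholesterol and uroplakins.

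The libraries came from 9 UPPL primary tumours, 11 BBN primary tumours, 4 tumours derived from the UPPL1541 line, 2 from the BBN963 line, 4 from the MB49 line, and cultures of UPPL1541, BBN963, MB49 and 3 KT lines (1 library each). UPPL mice carried Upk3a-CreERT2, a Cre driven by a uroplakin promoter, with p53f/f and Rosa26LSL-Luc, and their treatment label reads Untreated. BBN mice had the genotype label Ctrl and were given the carcinogen N-butyl-N-(4-hydroxybutyl)nitrosamine. Line-derived tumours of BBN963 and MB49 were labelled Ctrl and Untreated, and UPPL1541 line-derived tumours carried the UPPL genotype label. Cultures were labelled Untreated, the UPPL1541 culture with the genotype Ctrl, which goes against its name. The labels give neither the ages of the mice nor the meaning of KT. Each line is 1 line, so its tumours are not independent lines, and p-values measure only the spread between these samples. In bulk tissue, fewer cells of a type and less RNA per cell cannot be told apart.

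Values are the authors' RSEM gene estimates, divided by each library's upper quartile and set to a common scale, and called scaled estimates here. The libraries held 9.29 to 17.93 M recovered reads. In tumours the most frequent low value was 2 to 19 reads, so low tumour values are coarse. Keratins and other urothelial and epithelial markers summed to 78480.5 to 582093 in UPPL and 169744 to 502426 in BBN primary tumours, but to 171 to 645 in MB49 tumours and 17.3 in the MB49 culture, so MB49 carried almost none of these markers. The adipocyte genes Adipoq and Plin1 were at 0 in all 11 BBN primary tumours, and in UPPL primary tumours they were at 0 except for 4.08 of Adipoq in UPPL1695. Both genes define fat cells, which express many of the same lipid genes. All 8 adipocyte markers together summed to 121 to 361 in UPPL and 134 to 471 in BBN primary tumours. Most of that sum was Lipe, a lipase that other cells make too and the only marker of the 8 high enough to be tested, which did not pass (-0.40, limma adjusted p = 0.32).

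Among 8 comparisons, those of single lines with their cultures not counted, Hsd17b7 passed the test in 6, Me1 in 5, and Elovl5, Nsdhl and Scd1 in 4 each. The RefSeq promoter table (GRCm38.p6) held an entry for 28 of the 35 members. The 250 bases before the start are shown for these most often called members where an entry was found. Capitals mark the NF-Y box CCAAT and the Sp1 box GGGCGG on either strand, so a box on the other strand reads ATTGG or CCGCCC. Me1 has a pair of annotated starts, both shown.
Hsd17b7, chr1:169969206-169969455, minus strand: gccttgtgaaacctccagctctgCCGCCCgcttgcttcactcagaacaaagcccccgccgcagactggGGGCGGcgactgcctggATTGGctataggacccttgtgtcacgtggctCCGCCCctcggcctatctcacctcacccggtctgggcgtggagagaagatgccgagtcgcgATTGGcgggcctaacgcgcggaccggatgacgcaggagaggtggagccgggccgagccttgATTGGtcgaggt
Nsdhl, chrX:72918271-72918520, plus strand: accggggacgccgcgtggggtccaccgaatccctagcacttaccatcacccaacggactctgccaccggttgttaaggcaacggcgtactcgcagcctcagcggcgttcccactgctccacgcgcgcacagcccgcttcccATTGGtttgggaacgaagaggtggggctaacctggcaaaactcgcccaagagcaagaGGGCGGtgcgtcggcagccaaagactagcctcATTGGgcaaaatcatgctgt
Elovl5, chr9:77917115-77917364, plus strand: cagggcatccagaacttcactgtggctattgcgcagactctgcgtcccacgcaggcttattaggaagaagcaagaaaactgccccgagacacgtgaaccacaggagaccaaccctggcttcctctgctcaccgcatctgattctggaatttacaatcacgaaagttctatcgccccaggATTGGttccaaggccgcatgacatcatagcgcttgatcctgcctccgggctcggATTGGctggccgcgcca
Me1, chr9:86687278-86687527, minus strand: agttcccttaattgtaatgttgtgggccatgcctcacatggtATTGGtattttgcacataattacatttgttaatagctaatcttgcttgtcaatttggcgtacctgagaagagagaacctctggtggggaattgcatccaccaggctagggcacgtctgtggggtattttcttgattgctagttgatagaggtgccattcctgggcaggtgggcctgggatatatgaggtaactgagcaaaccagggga
Me1, chr9:86695915-86696164, minus strand: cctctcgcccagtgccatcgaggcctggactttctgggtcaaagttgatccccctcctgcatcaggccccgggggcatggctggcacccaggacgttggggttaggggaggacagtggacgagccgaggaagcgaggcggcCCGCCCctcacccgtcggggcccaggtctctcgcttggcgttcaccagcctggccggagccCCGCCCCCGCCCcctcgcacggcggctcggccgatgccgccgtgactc
Over windows of 300 bases, reaching 50 bases past the start, CCAAT was found on either strand in 23 of 28 members (82.1%), against 42.4% of the 16488 genes of the table with an entry. It was found in 13 of 14 sterol synthesis members and in 6 of 9 fatty acid members. GGGCGG was found in 22 of 28 members (78.6%), against 52.0% of all genes, and again in 13 of 14 sterol synthesis members but in 4 of 9 fatty acid members. The sterol element TCACNCCAC was found in 0 of 28 members and in 1.44% of all genes, which says only that these exact letters are not in these windows. NF-Y and Sp1 are general factors that often act beside SREBP, and these matches describe the letters and are not evidence of binding.

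In primary tumours, the members that differed were the late sterol enzymes Hsd17b7 and Sc5d, Me1 and Acss2, which supply NADPH and acetyl-CoA, and the desaturases Fads1, Fads2 and Scd2. By limma at an adjusted p under 0.05, 7 of 35 members were higher in UPPL than in BBN tumours and 0 were lower. At an unadjusted p under 0.05 2 were lower, and by edgeR 11 were higher and 0 lower. Over all 12818 genes tested, by limma at an adjusted p under 0.05, 5.71% were higher, 12.8% were lower and 18.5% passed in either direction. Background shares of calls below follow this rule, and the edgeR and unadjusted counts have none beside them. The members' median log2 difference was 0.42, against -0.19 over all genes.

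Me1 encodes the cytosolic malic enzyme, which makes NADPH for lipid synthesis. Its scaled estimate was 2800.2 to 6029.9 (median 4390.3) in the 9 UPPL tumours, against 336 to 2365 (median 1363) in the 11 BBN tumours. Every UPPL tumour lay above every BBN tumour, which held for no other member and for 0.687% of all genes in either direction. The test gave a log2 difference of 1.96 (SE 0.30, limma adjusted p = 3.1e-04). Acss2, which turns acetate into acetyl-CoA, ranged over 257 to 1419 (median 606) in UPPL and 26.2 to 506 (median 336) in BBN tumours. These groups overlapped, with a log2 difference of 1.58 (SE 0.47, limma adjusted p = 0.022).

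Hsd17b7, a reductase late in sterol synthesis, ranged over 664 to 4274 (median 2794) in UPPL and 157 to 1762 (median 780.5) in BBN tumours. UPPL1694 was the lowest UPPL tumour and lay inside the BBN range, and the test gave a log2 difference of 1.81 (SE 0.41, limma adjusted p = 0.0049). Sc5d, which introduces a double bond late in the pathway, ranged over 1805 to 3497 (median 2545) in UPPL and 474 to 2196 (median 1474) in BBN tumours. Its groups overlapped at the UPPL tumours UPPL1595, UPPL1597 and UPPL1694, with a log2 difference of 0.89 (SE 0.23, limma adjusted p = 0.01).

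Fads1 and Fads2 are the front-end desaturases that make polyunsaturated fatty acids. Fads1 ranged over 867 to 5976 (median 3083) in UPPL and 198 to 2686 (median 404) in BBN tumours. The BBN values were widely spread, with BBN969, BBN974, BBN975 and BBN976 at 2108, 2686, 1364 and 1324 and the other 7 at or below 427. The same 4 BBN tumours held the highest Fads2 values of their group, 643, 855, 716 and 365, while the other BBN tumours had at most 109.

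The UPPL tumours had 177 to 2905 (median 1355) of Fads2, so both genes overlapped between groups. Fads1 differed by 2.03 on the log2 scale (SE 0.48, limma adjusted p = 0.0065) and Fads2 by 3.35 (SE 0.91, adjusted p = 0.014). Scd2, a desaturase that makes monounsaturated fatty acids, had 15723 to 44085 (median 25204) in UPPL and 2401 to 20339 (median 15566) in BBN tumours, with a log2 difference of 0.90 (SE 0.31, limma adjusted p = 0.047). Scd2 lost the call in 16 of 27 alternative settings. Scd1, its close paralogue, ranged over 102 to 1355 (median 394) in UPPL and 83.1 to 2356 (median 679) in BBN tumours and did not pass (-1.11, adjusted p = 0.15). The counting may share reads among Scd genes, so levels of each are uncertain.

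**Figure D1:**
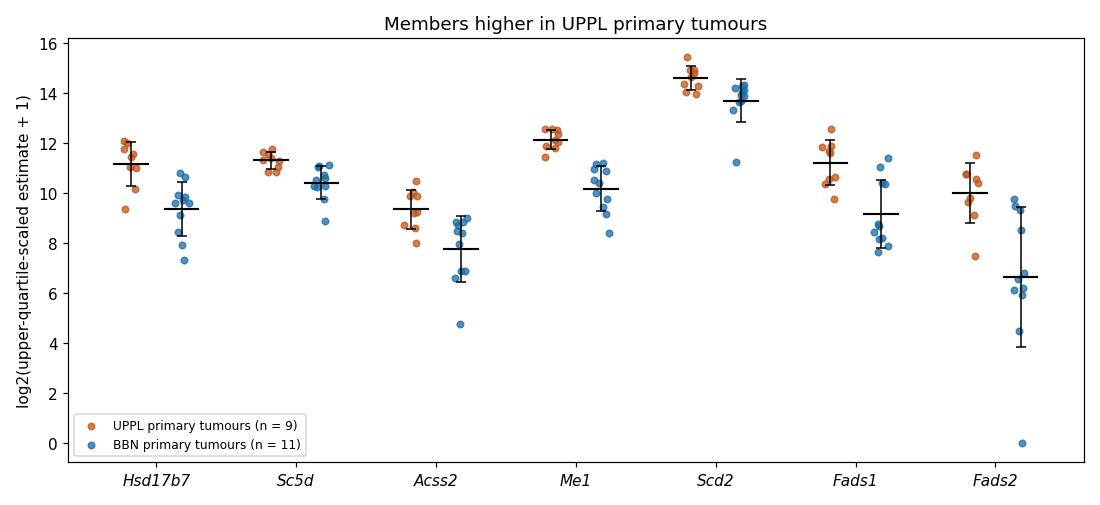
Scaled estimates, as log2(value + 1), of the 7 members that passed in primary tumours, in 9 UPPL (left of each pair) and 11 BBN tumours; each point is a tumour, black bars are means and SDs. The Me1 points of the groups do not overlap, and the BBN points of Fads1 and Fads2 spread most.

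By limma the other 15 sterol synthesis genes, early and late, did not pass in primary tumours, though Mvk and Nsdhl passed by edgeR (adjusted p = 0.026 and 0.035). Mvk, which phosphorylates mevalonate, averaged 693 ± 281 in UPPL and 417 ± 145 in BBN tumours (SD, n = 9 and 11), a log2 difference of 0.69 (adjusted p = 0.066). Nsdhl, which removes a carboxyl group from a sterol intermediate, averaged 1075 ± 157 in UPPL and 791 ± 267 in BBN tumours, with 0.51 (adjusted p = 0.052). Squalene epoxidase, Sqle, averaged 3109.6 ± 1118 in UPPL and 2346 ± 1609.5 in BBN tumours, with 0.78 (adjusted p = 0.28).

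Of the 5 control genes 0 passed by limma in primary tumours, 2 were higher at an unadjusted p under 0.05, and 1, Srebf1, was higher by edgeR (adjusted p = 0.031). Insig1, itself a target of SREBP, came nearest, with 580.0 ± 142 in UPPL and 357 ± 216 in BBN tumours and a log2 difference of 0.95 (adjusted p = 0.058). Srebf1 differed by 0.37 (adjusted p = 0.12) and Srebf2 by 0.08 (adjusted p = 0.86). Scap was 1375 to 2562 in UPPL and 1547 to 2235 in BBN tumours, and these ranges overlapped. Stard4, which carries cholesterol between membranes, differed by 0.06 (adjusted p = 0.95).

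The central enzymes of fatty acid synthesis did not pass either. ATP citrate lyase, Acly, differed by 0.14 (adjusted p = 0.56), fatty acid synthase, Fasn, by 0.12 (adjusted p = 0.68), and acetyl-CoA carboxylase, Acaca, by -0.45 (adjusted p = 0.18). Acacb, the carboxylase at mitochondria, was low throughout, at 0 to 59.8 in UPPL and 0 to 90.3 in BBN tumours. Among elongases, Elovl6 differed by 0.44 (adjusted p = 0.22) and Elovl5 by 0.38 (adjusted p = 0.21).

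Other cell types moved with this comparison. In UPPL against BBN tumours, summed macrophage markers spanned 249.8 to 1381 against 1042 to 4998, with 4 of 6 markers lower and 0 higher. Fibroblast markers spanned 329.7 to 6775 against 225 to 55446, with 1 of 6 lower, and smooth muscle markers 15 to 27209 against 55.2 to 119965, with 2 of 4 lower. Of 8 urothelial and epithelial markers, 3 were higher. Their part in the differences above was not tested.

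Within the BBN tumours the sterol genes ranged widely, mainly through 1 tumour. BBN974 was the lowest of the 11 BBN tumours in 17 of 17 sterol synthesis genes and in 26 of 35 members. Its sterol genes summed to 4357, against 14317 to 38154 in the other 10. Sqle was 82.3 in BBN974, against a lowest value of 1241 in the others, and Idi1, which isomerises isopentenyl pyrophosphate, was 144, against 1368. Over the 17 genes, BBN974 lay 1.57 to 75.74 times below the median of the other BBN tumours, with a median of 5.16 times. The 75.74 belongs to Tm7sf2, which was at 0.90 in BBN974, or 1 read, so that ratio is uncertain. The next largest was 26.92, for Sqle.

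Not every member was low in BBN974. Insig1, at 65.1, Acss2, at 26.2, and Scd2, at 2401, were the lowest of the group, but Fads1 and Fads2 were its highest and Acly, at 5993, and Fasn, at 3270.3, lay inside its range. BBN974 also had the lowest summed fibroblast markers of the BBN tumours, 225, and the highest endothelial markers, 3127, whose part was not tested. Without BBN974, the same 7 members were higher in UPPL tumours, Scd1 was lower (log2 difference -1.42, limma adjusted p = 0.038), and the members' median was 0.30.

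At the other end, BBN963 was the highest BBN tumour in 10 of 17 sterol genes and in 17 of 35 members. In the UPPL tumours, UPPL1694 was the lowest in 11 of 17 sterol genes and UPPL1591 the highest in 7. UPPL1544 was the highest in 10 of 35 members, among them Fads1, Fads2, Scd1, Scd2 and Srebf1.

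**Figure D2:**
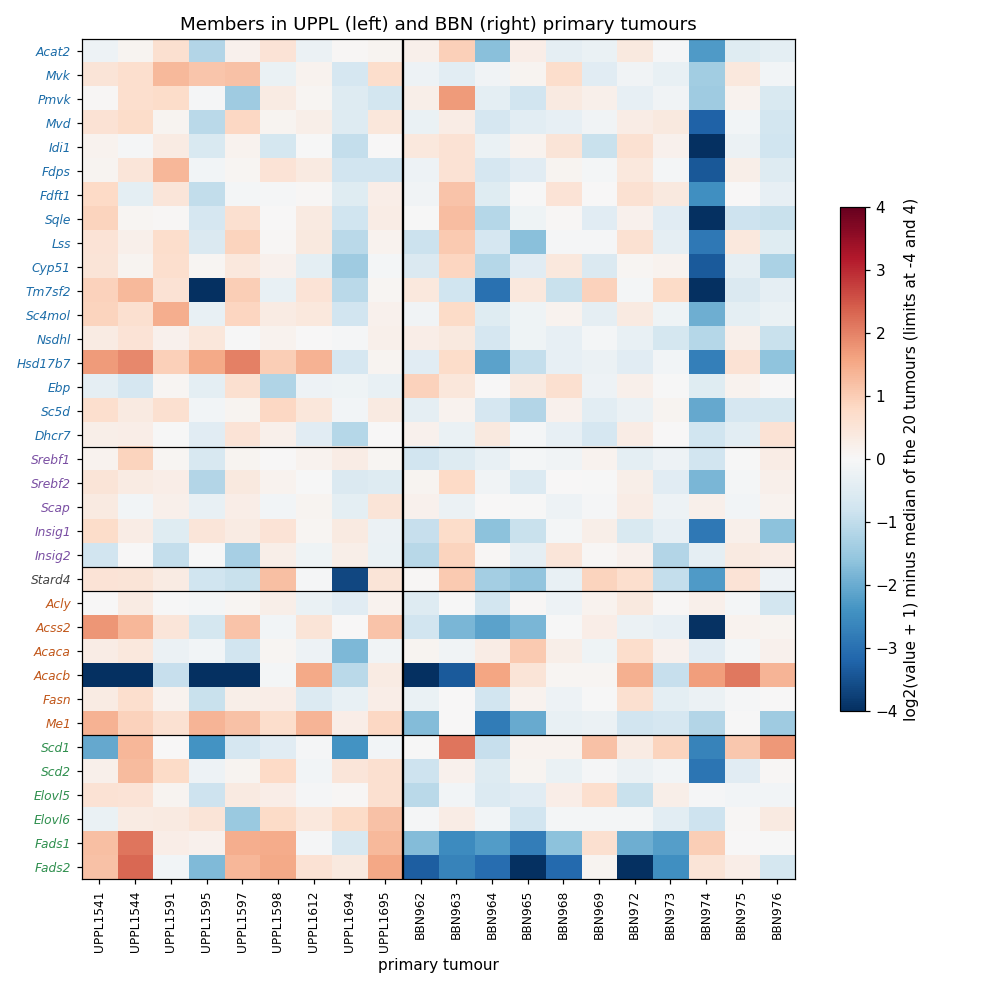
Members (rows, by role) in 9 UPPL tumours (left) and 11 BBN tumours (right), as log2(value + 1) minus the median of the 20 tumours, with colour limits at -4 and 4. The BBN974 column is blue across the sterol genes, and Fads1 and Fads2 are red in most UPPL tumours and pale in 4 BBN tumours.

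Tumours grown from the 3 lines differed from each other in sterol genes, many of which were higher in BBN963. In BBN963 against MB49 tumours, 13 members were higher and 7 lower (background 15.8% higher, 26.1% lower and 41.9% in either direction of 14604 genes). Of the 17 sterol synthesis genes, 10 were higher and 1, Sc5d, was lower, a call that was lost in 14 of 18 alternative settings. In UPPL1541 against BBN963 tumours, 4 members were higher and 13 lower (background 21.4% higher, 7.37% lower, 28.8% in either direction), with 9 of 17 sterol genes lower and 0 higher by limma (10 and 0 by edgeR, 11 and 0 at an unadjusted p under 0.05). Under median-of-ratios scaling the BBN963 against MB49 split was 16 higher and 5 lower. With the tumour number as a replicate block, UPPL1541 against BBN963 gave 4 higher and 5 lower. Leaving out either BBN963 tumour left 8 members called in UPPL1541 against BBN963. The BBN963 group holds 2 tumours and enters both comparisons, and 1 of them, BBN963 tumour 1, had the coarsest low values of all libraries.

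Cyp51, the demethylase that acts on lanosterol, was 2907, 3774, 4485 and 3931 in the 4 UPPL1541 tumours, 11030.5 and 14466 in the 2 BBN963 tumours and 4247, 2735, 3066 and 3150.3 in the 4 MB49 tumours. Both BBN963 tumours lay far above the other 8. UPPL1541 against BBN963 gave a log2 difference of -1.76 (SE 0.21, limma adjusted p = 2.5e-04), and BBN963 against MB49 gave a log2 difference of 1.96 (SE 0.21, limma adjusted p = 2.8e-05). Hsd17b7 was 649, 486, 518 and 785 in UPPL1541, 2049 and 2240.2 in BBN963 and 338, 163, 283 and 296 in MB49 tumours. The 3 lines did not overlap, in the order BBN963, UPPL1541, MB49, with log2 differences of -1.84 (adjusted p = 0.0013) for UPPL1541 against BBN963 and 3.04 (adjusted p = 1.2e-05) for BBN963 against MB49.

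Idi1, Fdps, Fdft1 and Lss, enzymes between isoprenoids and lanosterol, were lower in UPPL1541 than in BBN963, and all but Fdps were higher in BBN963 than in MB49. Idi1 was -1.30 (adjusted p = 0.0016) in UPPL1541 against BBN963 and 0.87 (adjusted p = 0.0076) in BBN963 against MB49. Fdps, which makes farnesyl pyrophosphate, the branch point to squalene, was -1.02 (adjusted p = 0.021) in UPPL1541 against BBN963 but did not pass in BBN963 against MB49, at 0.34 (adjusted p = 0.35). Squalene synthase, Fdft1, was -1.14 (adjusted p = 0.016) in UPPL1541 against BBN963 and 0.96 (adjusted p = 0.024) in BBN963 against MB49, and lanosterol synthase, Lss, was -0.69 (adjusted p = 0.021) and 1.02 (adjusted p = 0.0014) in the same comparisons. In UPPL1541 against BBN963 the calls of Fdps, Fdft1 and Lss were lost with the replicate block and without BBN963 tumour 2, and that of Lss also without BBN963 tumour 1. In BBN963 against MB49 those of Idi1 and Fdft1 were lost without BBN963 tumour 2, and that of Fdft1 also with the block and without MB49 tumour 2, 3 or 4. Dhcr7, which makes cholesterol from its immediate precursor, did not pass, at 0.19 (adjusted p = 0.42) and 0.00 (adjusted p = 1). These are log2 differences with limma adjusted p-values, and the comparisons share the BBN963 tumours.

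UPPL1541 and MB49 tumours differed gene by gene, with little net shift. Of 35 members, 7 were higher and 8 lower in UPPL1541 tumours (background 27.3% higher, 22.6% lower, 49.9% in either direction), a share near the background. Mvk, Hsd17b7, Acly, Acss2, Me1, Elovl6 and Fads2 were higher, and Fdps, Sc5d, Insig1, Insig2, Stard4, Acacb, Scd1 and Elovl5 were lower.

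Me1 was 1160.1, 949, 1223 and 1037 in UPPL1541 tumours, 1317 and 1712 in BBN963 tumours and only 165, 8.98, 27.7 and 66.4 in MB49 tumours. UPPL1541 against MB49 gave a log2 difference of 4.68 (SE 0.66, limma adjusted p = 1.5e-04). Scd1 ran the other way, at 1585, 940.0, 1442 and 1174 in UPPL1541, 675 and 759 in BBN963 and 6678, 6722, 6482 and 7106 in MB49 tumours. The groups did not overlap, and UPPL1541 against MB49 gave a log2 difference of -2.42 (SE 0.15, limma adjusted p = 2.9e-07).

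Insig1 and Insig2, the brakes of the pathway, were lower in UPPL1541 than in MB49 tumours. Insig2 was 545, 601, 426 and 566 in UPPL1541 tumours, 787 and 946 in BBN963 tumours and 2267, 1989.9, 2138 and 2629 in MB49 tumours. UPPL1541 against MB49 gave a log2 difference of -2.08 (SE 0.15, limma adjusted p = 6.8e-07) with no overlap. Insig1 was 368 to 435 in UPPL1541 and 987 to 1329 in MB49 tumours, again without overlap, with a log2 difference of -1.40 (SE 0.14, limma adjusted p = 1.3e-05). Elovl5 was 765 to 1029 in UPPL1541 and 1614 to 2440.0 in MB49 tumours, with a log2 difference of -1.09 (SE 0.15, limma adjusted p = 1.2e-04).

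**Figure D3:**
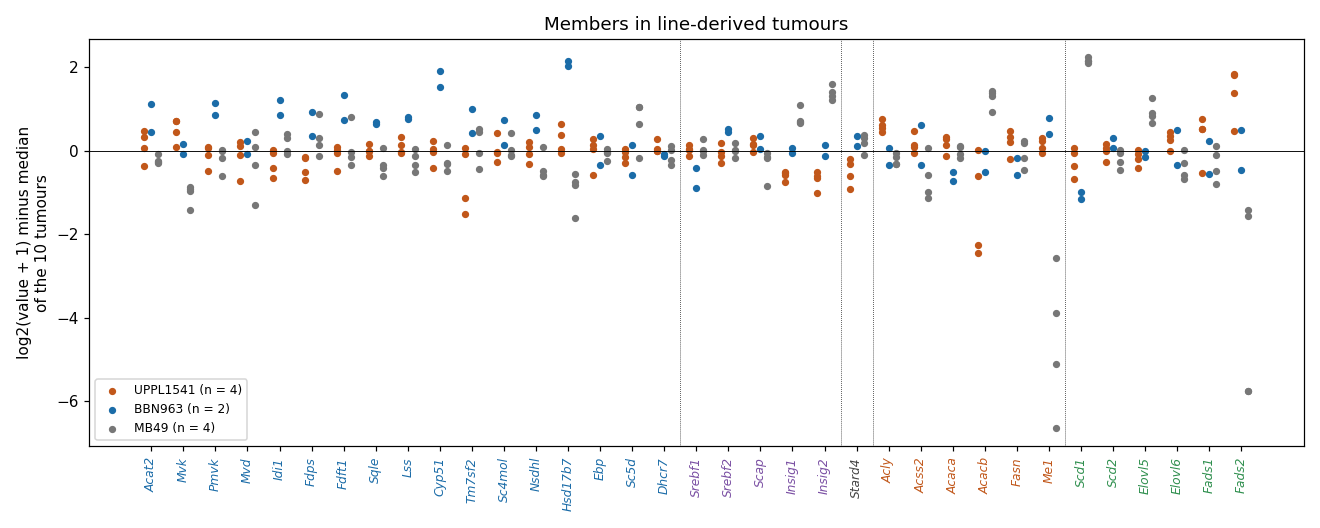
Members in the 4 UPPL1541, 2 BBN963 and 4 MB49 line-derived tumours, as log2(value + 1) minus the median of the 10 tumours; each point is a tumour and gene names are coloured by role. BBN963 points lie on top for Cyp51 and Hsd17b7, and MB49 points lie lowest for Me1 and highest for Scd1 and Insig2.

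Host cells differ between these tumours. Skeletal muscle markers summed to 16.1 to 668 in UPPL1541, 29.2 to 7784 in BBN963 and 4287 to 14302 in MB49 tumours. Macrophage markers summed to 5497 to 13004 in UPPL1541, 5749 to 7353 in BBN963 and 16383 to 24741 in MB49 tumours. Fibroblast markers summed to 73862 to 368464 in UPPL1541, 86636 to 113637 in BBN963 and 14883 to 110663 in MB49 tumours. Adipoq was at most 22.7 in UPPL1541, 0 in BBN963 and at most 47.8 in MB49 tumours. Of 6 sebocyte markers, 4 were high enough to be tested in these tumours. In UPPL1541 tumours Krt79 was at 3746 to 5464 and Far2 at 207 to 348. Mc5r, a receptor of sebocytes, was at 0 in all 10 tumours. Sebocyte markers summed to 4080 to 5690 in UPPL1541 tumours, and most of that sum was Krt79. They summed to 785, 78.2 and 148 in the UPPL1541, BBN963 and MB49 cultures, so in UPPL1541 they were also found in culture. The part of host cells was not tested.

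Against primary tumours of their own model, line-derived tumours had a share of members called in either direction that was below that of all genes. It was 20% in UPPL1541 and 5.71% in BBN963. By direction, the shares of members lower in UPPL1541 and higher in BBN963 were above those of all genes, and the opposite directions were below. UPPL1541 line-derived against UPPL primary tumours had 2 members higher, Ebp and Scd1, and 5 lower, Hsd17b7, Me1, Elovl5, Elovl6 and Fads1 (background 20.5% higher, 5.98% lower, 26.5% in either direction of 15229 genes). Under other scalings the higher calls were fewer, with 1 higher and 6 lower after quantile normalization, 1 and 7 after median-of-ratios scaling, and 0 and 7 by edgeR. BBN963 line-derived against BBN primary tumours had 2 higher, Cyp51 and Nsdhl, and 0 lower by limma, with the same counts by edgeR and 3 lower at an unadjusted p under 0.05 (background 2.09% higher, 5.67% lower, 7.76% in either direction). Neither call of the BBN963 comparison remained when either of its 2 line-derived tumours was left out.

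Me1 and Hsd17b7, high in UPPL primary tumours, were low in the tumours grown from UPPL1541. Me1 was 1160.1, 949, 1223 and 1037 in UPPL1541 line-derived tumours, below all 9 UPPL primary tumours (2800.2 to 6029.9), with a log2 difference of -2.05 (SE 0.37, limma adjusted p = 2.0e-04). Hsd17b7 was 486 to 785 there, against 664 to 4274 in UPPL primary tumours, with overlap only at UPPL1694 and a log2 difference of -1.93 (SE 0.51, limma adjusted p = 0.0059). The primary tumour that shares its number with the line, UPPL1541, had 6029.9 of Me1 and 3468 of Hsd17b7, though the labels do not say that the line came from it.

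Whether that shift differed between models was tested as UPPL minus BBN of line-derived minus primary. This contrast subtracts the difference between primary tumours, where Me1 and Hsd17b7 were already higher in UPPL, so it is not independent of that result. Of 35 members 3 passed, all lower (background 8.16% higher, 1.06% lower, 9.22% in either direction): Hsd17b7 with a log2 difference of -3.65 (SE 0.82, limma adjusted p = 0.0075), Me1 with a log2 difference of -2.43 (SE 0.60, limma adjusted p = 0.013) and Nsdhl with a log2 difference of -1.20 (SE 0.36, limma adjusted p = 0.038). By edgeR the count was also 3. Without BBN963 tumour 1, 0 members passed, and 1 passed without BBN963 tumour 2. Beside these, fibroblast markers rose in UPPL1541 line-derived against primary tumours in 6 of 6 genes and macrophage markers in 6 of 6, and their part was not tested.

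Between line-derived tumours, which also hold host cells, and cultures of the same lines, members differed in opposite directions in MB49 and UPPL1541. Few passed in BBN963 or with the lines pooled. The comparisons line by line were added after the data were seen, and their background of calls is by limma at an adjusted p under 0.05 only. Each sets the tumours against 1 culture library, which is assumed to vary like the tumours, so the calls carry no measure of how far repeat cultures of a line would differ. In MB49 tumours against the MB49 culture, 28 of 35 members were higher and 0 lower by limma (22 and 0 by edgeR, 30 and 0 at an unadjusted p under 0.05), against a background of 24.1% higher and 31.1% in either direction of 14321 genes. In UPPL1541 tumours against the UPPL1541 culture, 20 of 35 were lower and 0 higher by limma and by edgeR, with 1 higher at an unadjusted p under 0.05 (background 17.4% higher, 8.18% lower, 25.6% in either direction). Of the 17 sterol genes, 16 were higher in MB49 tumours and 10 were lower in UPPL1541 tumours. The median log2 difference of the members was 1.60 in MB49 and -1.24 in UPPL1541, against 0.39 and 0.22 over all genes.

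The values show a large difference between the cultures. Idi1 was 1364, 1617, 2180.3 and 2061 in UPPL1541 tumours and 3314 in the UPPL1541 culture. In MB49 it was 2851, 2139, 2029 and 2677 in tumours and 233 in the culture. The tumour ranges of the lines overlapped, with MB49 reaching higher. The UPPL1541 culture lay above all of its tumours and the MB49 culture below all of its own. The tests gave -0.90 (adjusted p = 0.034) in UPPL1541 and 3.36 (adjusted p = 4.3e-06) in MB49, as log2 differences with limma adjusted p.

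Cyp51 was 2907 to 4485 in UPPL1541 tumours, against 16471 in the UPPL1541 culture, and 2735 to 4247 in MB49 tumours, against 1074 in the MB49 culture. Acat2, which joins acetyl-CoA units at the entry to the pathway, was 455 to 529.7 in MB49 tumours and 57.8 in the MB49 culture. For Cyp51 the tumours of both lines overlapped, while the cultures lay on either side of them. Srebf2 was 2654 to 3665 in UPPL1541 tumours, against 7299 in the UPPL1541 culture, and 2882 to 3679.5 in MB49 tumours, against 1152 in the MB49 culture.

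Fatty acid genes took part too. Scd2 was 18579 to 24732 in UPPL1541 tumours, against 80566 in culture, and 16076 to 22360.0 in MB49 tumours, against 8199 in culture. Fads1 was 314 to 778 in UPPL1541 tumours, against 4602 in culture. It was 263 to 495 in MB49 tumours but at 0 in the MB49 culture, so their mean was at least 130-fold higher than a floor of 3 reads in that 1 library.

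By the same floor Me1, also at 0 in the MB49 culture, was at least 23.2-fold higher in MB49 tumours, a bound that fell to 11.9-fold without MB49 tumour 1, the highest. Fads2 was at 0 in the MB49 culture and in 2 of the 4 MB49 tumours, and did not pass, with a tumour mean of 9.03 that was at least 3.13-fold higher than the floor and at least 1.97-fold without tumour 2. With these 3 genes at their bounds, the members' median in MB49 stayed at 1.60. Fasn was an exception in MB49, at 1921 to 3081 in tumours and 2236 in culture, and did not pass (0.18, adjusted p = 0.7). Scap did not pass in either line, with 0.28 (adjusted p = 0.5) in UPPL1541 and 0.25 (adjusted p = 0.55) in MB49.

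The difference between the lines was tested as tumour minus culture in MB49 minus the same in UPPL1541, and it too rests on 1 culture library per line. Of 35 members 31 were higher and 0 lower by limma (28 and 0 by edgeR, 34 and 0 at an unadjusted p under 0.05), against a background of 10.4% higher, 5.15% lower and 15.6% in either direction. The 31 held 16 of 17 sterol genes, 10 of 12 fatty acid genes, 4 of 5 control genes and Stard4. The members' median was 3.11 on the log2 scale, against 0.13 over all genes. Mvk (1.13, adjusted p = 0.11), Scap (-0.03, adjusted p = 0.97), Acss2 (2.04, adjusted p = 0.067) and Fads2 (7.17, adjusted p = 0.05) did not pass. The Fads2 value depends on the added 1, since the MB49 culture was at 0.

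Counted by tumour rather than by test, 32 of 35 members were lower in all 4 UPPL1541 tumours than in the UPPL1541 culture and 2, Mvk and Scap, were higher in all 4 (background 28.2% lower, 42.3% higher, 70.5% in either direction). In MB49, 32 members were higher in all 4 tumours than in the culture and 0 were lower (background 45.4% higher, 23.6% lower, 68.9% in either direction).

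BBN963 lay between them, with a members' median log2 difference of 0.12, against -0.16 over all genes. Its 2 tumours had 3 members higher and 5 lower than the BBN963 culture (background 11.5% higher, 11.4% lower, 22.9% in either direction), and 6 higher and 5 lower under median-of-ratios scaling. The 3 higher were Acss2, Pmvk, the next kinase after Mvk, and Stard4, and the 5 lower were Fasn, Scd1, Elovl5, Elovl6 and Fads1. By tumour, 16 members were higher and 12 lower in both BBN963 tumours than in the culture (background 31.4% higher, 45.1% lower, 76.5% in either direction). In either direction, this share and that of the members called were both near the background. Elovl5, which lengthens polyunsaturated fatty acids, was 925 and 1023 in tumours and 3951 in culture, with a log2 difference of -2.02 (SE 0.26, limma adjusted p = 2.1e-04). Fads1 was 539 and 308 in tumours and 2684 in culture, with a log2 difference of -2.72 (SE 0.55, limma adjusted p = 0.0047).

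**Figure D4:**
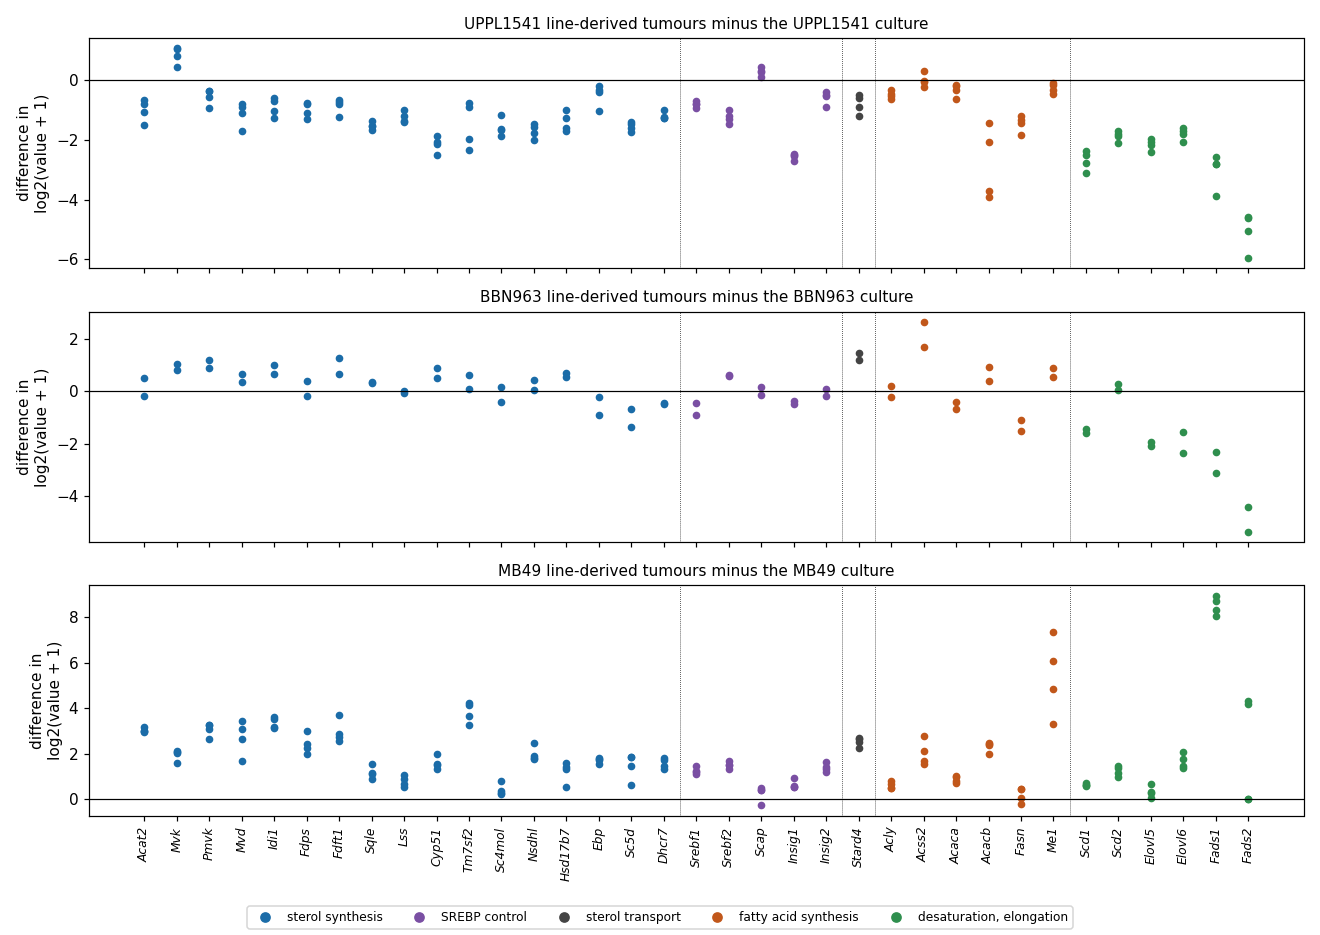
Tumour minus culture of the same line, as the difference in log2(value + 1), for each member (horizontal axis, coloured by role); each point is a line-derived tumour. UPPL1541 points lie mostly below 0, MB49 points mostly above 0, and BBN963 points lie near 0 for sterol genes and below 0 for most desaturases and elongases. Fads1, Fads2 and Me1 in MB49 are set against a culture at 0, so their heights depend on the added 1.

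With the 3 lines pooled and line as a factor, fewer members passed. Of 35 members 2 were higher in tumours, Mvk and Acss2, and 2 lower, Fasn and Elovl5 (background 20.1% higher, 8.99% lower, 29.1% in either direction). Under edgeR 1 was higher and 5 lower, after quantile normalization 1 and 2. Without the UPPL1541 culture 17 were higher and 0 lower, without the MB49 culture 1 was higher and 11 lower, and without the BBN963 culture 1 was higher and 0 lower.

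The cultures themselves spanned most of the range of the series. The UPPL1541 culture held the highest value of all 36 libraries in 17 of 35 members and of the 6 cultures in 24. The MB49 culture was the lowest of the 6 cultures in 29 of 35 members and in 17 of 17 sterol genes, and the lowest of all 36 libraries in 13 members. BBN974 was the lowest of all 36 in another 13. Summed sterol genes reached 61844 in the UPPL1541 culture, 33865 in BBN963, 7924 in MB49 and 28997 to 31539 in the 3 KT cultures.

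All 3 KT cultures lay above the MB49 culture in 17 of 17 sterol genes and below the UPPL1541 culture in 11 of 17. In fatty acid genes they were below UPPL1541 in 11 of 12, the exception being Fads1, at 1893, 7059 and 5073 in KT1044, KT1970 and KT1975 against 4602 in UPPL1541. With 1 library for each culture these are values with no test, and growth conditions are not given in the labels.

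**Figure D5:**
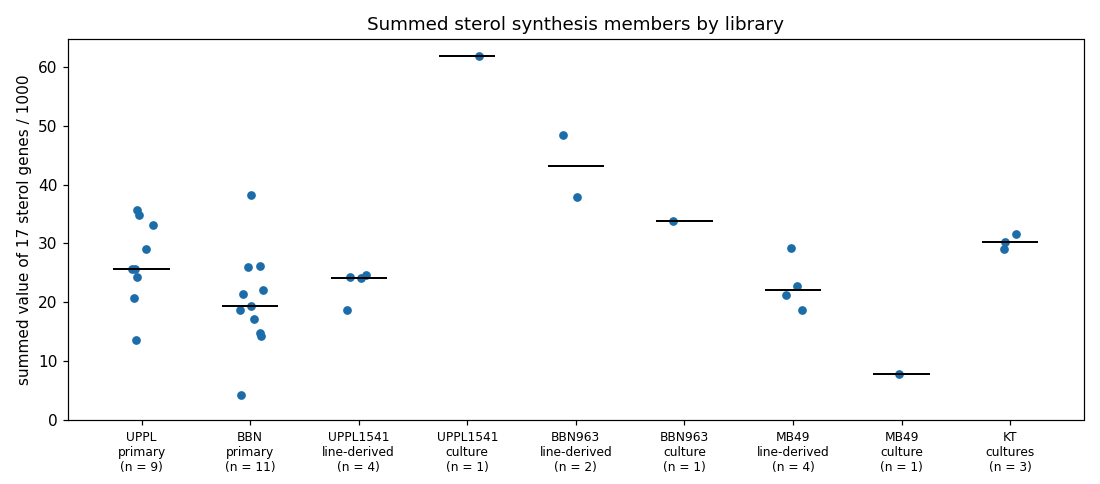
Summed scaled estimate of the 17 sterol synthesis genes in each of the 36 libraries, divided by 1000; points are libraries and lines are medians. The UPPL1541 culture is the highest point, BBN974 the lowest among the BBN tumours and of all libraries, and the MB49 culture lies below every MB49 tumour.

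Genes beside the members moved with the tumour and culture contrast in part, the other SREBP pathway genes in UPPL1541 but not in MB49. Their median log2 difference was -1.35 in UPPL1541 tumours against culture and 0.13 in MB49, against 0.22 and 0.39 over all genes. In MB49 their share of calls was near that of all genes. Of 17 other SREBP pathway genes tested, 8 were lower and 0 higher in UPPL1541 tumours, 5 were higher and 1 lower in MB49 tumours, and 7 passed the difference between lines, all higher. Of 10 fatty acid oxidation genes, 0 passed the difference between lines by limma or by edgeR and 1 had an unadjusted p under 0.05. Of 11 cholesterol efflux and LXR genes, 3 were higher and 2 lower.

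Proliferation genes moved in the direction of the members in UPPL1541 and MB49. Of 6 such genes, 6 were lower in UPPL1541 tumours than in culture, and 3 were higher and 1 lower in MB49 tumours. In the difference between these lines 4 passed, all higher. In BBN963 tumours 5 were lower than in culture and 0 higher, while the members' median log2 difference there was 0.12. Summed proliferation genes were 10652 to 12384 in UPPL1541 tumours, against 36295 in culture, and 23388 to 29419 in MB49 tumours, against 16238 in culture. In BBN963 tumours they were 16553 to 17121, against 35109.5 in culture. Tumours of UPPL1541 and MB49 also had higher levels of host cell markers than their cultures. Macrophage sums were 5497 to 13004, against 485, in UPPL1541 and 16383 to 24741, against 172, in MB49. The part of host cells and of proliferation in the result was not tested.

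In primary tumours the other SREBP pathway genes gave 3 higher and 1 lower of 15 tested. Fatty acid oxidation genes gave 3 higher and 1 lower of 10. Over all genes tested there, 5.71% were higher and 12.8% lower.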

How the data were processed

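Libraries of 36 samples were compared from 1 table of 21705 genes. The signal values are RSEM gene estimates scaled by upper quartile, read from the deposited values, whose 75th percentile above 0 is 998.9 to 1000. RNA was isolated with RNeasy and libraries prepared with TruSeq Stranded mRNA reagents, per the labels' protocols. The submitters' processing notes name mm9, SAMtools, Picard 1.64 and RSEM but not what each did. Reads were recovered from the deposited signal, with 92.0 to 96.3 percent of values whole within 0.02.

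Values were taken as log2(value + 1), and genes were kept if 10 or more in 9 libraries (primary tumours), 2 (line-derived tumours) or 3 (fits with cultures). limma 3.58.1 (trend, R 4.3.3) was fitted on all genes with Benjamini-Hochberg adjustment, and differences on this scale understate changes of low genes. Primary tumours, line-derived tumours, both together, and tumours with cultures (line as a factor) had a fit each, and contrasts line by line used 6 groups. edgeR 4.0.16 was run on recovered reads. The fits of primary tumours and of line-derived tumours were run on simulated data, for UPPL against BBN and UPPL1541 against MB49 only. The fit of both kinds of tumour together and the fits with cultures were not simulated. Members and lists were chosen with earlier results of these data known. Every member could be named; other genes were the first 2 of a list, and up to 2 called, plus marker genes named for their levels. Other alternatives were pseudocount, filter, scaling, the replicate block and leaving out libraries. Tumour numbers did not pair samples (correlations of deviations -0.093 to 0.066). 1 item of the UPPL genotype label and some genes of the lists are not reported here.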

Additional observations from a re-analysis of the deposited data

Results flagged for a closer look

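Of 105 combinations of a member and a group of 4 or 9 tumours, 7 held a tumour far from the others, where chance gives about 1 in 20. In MB49 tumour 1, a library with coarse low values, Acat2 was 529.7 (next highest 467), Nsdhl 955 (next 641) and Insig1 1329 (next 1027). In UPPL primary tumours, UPPL1544 had 3565 of Srebf1 (next 2335) and 1355 of Scd1 (next 549), UPPL1591 had 1759.6 of Fdps (next 1018.5), and UPPL1612 had 59.8 of Acacb (next 25.5).

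The shift from primary to line-derived tumours differed between UPPL and BBN in 3 of 35 members by the limma test of the difference. Over all genes 9.22% passed in either direction, a similar share, and 1.06% were lower. The log2 values were -3.65 for Hsd17b7, -2.43 for Me1 and -1.20 for Nsdhl. All 3 lost the call without BBN963 tumour 1. Tumour minus culture differed between MB49 and UPPL1541 in 31 of 35 members, all higher in MB49, each line having 1 culture library.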

How the results depend on the processing

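Of 162 member results that passed, values were recomputed under alternatives 2830 times: 2586 kept the call, 244 lost it and 0 changed direction. In primary tumours 11 members were called under median-of-ratios scaling and 11 by edgeR, against 7. In UPPL1541 against BBN963 tumours the count was 11 without the coarse libraries and, with the tumour number as a replicate block, 9, against 17; that block gave 14 in UPPL1541 against MB49 and 15 in BBN963 against MB49. Without the coarse libraries 0 were called in BBN963 line-derived against primary tumours and 0 in the difference between models. Those settings hold fewer samples, and the cause was not tested.

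Leaving out 1 library at a time gave 6 to 9 calls in primary tumours, 12 to 15 in UPPL1541 against MB49, 8 to 17 in UPPL1541 against BBN963, 15 to 20 in BBN963 against MB49, 5 to 9 in UPPL1541 line-derived against primary, 0 to 4 in BBN963 line-derived against primary, and 0 to 4 in the difference between models. Against cultures it gave 1 to 17 with lines pooled, 17 to 22 in UPPL1541, 6 to 11 in BBN963, 25 to 29 in MB49, and 31 to 33 in the difference between lines. Quantile normalization gave 19 in MB49, against 28.

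Over all genes, UPPL1541 against BBN963 fell to 2682 calls with the block and 2555 without BBN963 tumour 1, against 4208. BBN963 line-derived against primary had 729 by edgeR, 309 without coarse libraries, 232 without BBN963 tumour 1 and 653 without tumour 2, against 1182. The difference between models had 775, 412 and 299 under quantile normalization, edgeR and without coarse libraries, against 1404, 296 and 920 without BBN963 tumours 1 and 2, and 841 without UPPL1541 tumour 1. Quantile normalization moved the median log2 difference of all genes to -0.04 from -0.19 in primary tumours, to 0.07 from 0.55 in the difference between models and to -0.05 from 0.39 in MB49 tumours against culture, where the members' median stayed between 1.11 and 1.68. It was -0.03 by edgeR, against -0.24, in BBN963 against MB49 tumours, and 0.01 by edgeR, against -0.16, in BBN963 tumours against culture. In comparisons of 1 line with its culture, the culture could not be left out.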
